A study of Mus musculus with 6 samples.

Results

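The proteins of the mitochondrial ribosome were compared between mouse spermatogonial stem cells (SSC), which renew themselves in the testis and give rise to sperm, and pluripotent embryonic stem cells (ESC). Members were taken by name, as every probe on the array whose annotated gene symbol starts with Mrpl or Mrps and a digit. The rule found 132 probes for 76 genes, of 45281 probes and 19057 named genes in all. The study hybridised 3 samples of ESC, labelled with the strain R1/E, a mouse ES cell line, and 3 samples of SSC, labelled mouse and C57BL/6, each on 1 single-colour Illumina bead array. No transgene, treatment, age, sort or culture condition is given for either group in the sources used here. The groups differ in strain as well as in cell type, and the contribution of each to a difference cannot be told apart. Whether the 3 replicates of a group are different cultures or animals is unstated in the labels, and the p-values therefore cover the spread among these 6 samples, possibly a technical one.

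The mitochondrial ribosome translates the small set of proteins encoded by mitochondrial DNA, which are core subunits of the respiratory chain and ATP synthase. Its ribosomal RNAs come from mitochondrial DNA, while all of its proteins are encoded in the nucleus, made in the cytosol and imported. It descends from a bacterial ribosome, and its proteins are either homologues of bacterial ribosomal proteins or additions particular to mitochondria. ES cells in culture are known for active glycolysis and for small, immature mitochondria, and undifferentiated spermatogonia are described as largely glycolytic. The metabolism of these samples was not measured.

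Values are log2 intensities after background correction and quantile normalization, and a difference is SSC minus ESC. A probe was measured when it was detected, at a detection p under 0.01, on at least 3 of the 6 arrays. Each gene was represented by its measured probe with the highest mean signal. By this rule 72 of the 76 genes were measured, with 107 of their 132 probes. Mrpl19, Mrpl32, Mrps14 and Mrpl45, the last of which holds the ribosome to the inner membrane, did not pass. No probe named Mrpl41 or Mrps36 was found here. The gene's own probe was detected on all 6 arrays for 67 of the 72 measured members, beside 76.7% of all genes measured. Calls were made where the adjusted p was below 0.05 (limma, Benjamini-Hochberg over all 10024 genes measured).

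Member probes were detected on the arrays of both groups. An ESC array detected 15242 to 15613 probes and an SSC array 16505 to 17211, and 103 to 107 member probes were detected on each. Correlations over measured probes were 0.989 to 0.993 within a group and 0.784 to 0.795 between groups. The labels were checked against marker genes. All 10 pluripotency markers were lower in SSC, with a summed intensity of 19760 to 20670 on the ESC arrays and 2715 to 2886 on the SSC arrays. Of 10 spermatogonial markers, 9 were higher in SSC, and Etv5 was not called. Their summed intensity was 1580 to 1665 in ESC and 10025 to 10389 in SSC. Markers of somatic testis cells also moved with the group. Of 7 measured Sertoli cell markers, 6 were higher in SSC (summed intensity 204 to 223 in ESC and 2874 to 3118 in SSC), and of 11 measured fibroblast and myoid markers 9 were higher (3120 to 3311 and 8409 to 9296). For Leydig cells 3 of 4 measured markers were higher (259 to 268 and 545 to 721), and for macrophages 2 of 3 were (64.2 to 77.1 and 97.5 to 116), while the macrophage markers Adgre1, Ptprc and Cd68 did not pass the detection filter. The lists held 10 Sertoli, 12 fibroblast and myoid, 6 Leydig and 8 macrophage markers, of which 2, 3, 1 and 0 were detected on all 6 arrays. Among the pluripotency and spermatogonial markers, 7 and 8 were. A marker absent from ESC could pass the detection filter only through the SSC arrays, so the filter favours higher markers in these counts. Proliferation genes fell, all 8 of those measured (9774 to 10101 and 5057 to 6007). The part of these other cells and of proliferation in the results below was not tested.

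Transcripts of the mitochondrial ribosomal proteins were lower in SSC for more members than they were higher, and mostly by less than 2-fold. Of the 72 measured, 38 (52.8%) fell, 11 (15.3%) rose and 23 were not called. Over all 10024 genes, 36.5% were lower and 37.9% higher in SSC, 74.5% being called in either direction. The members' median difference was -0.38 on the log2 scale, with quartiles at -0.63 and 0.02, beside a median of 0.0036 over all genes. Called members that were lower had a median difference of -0.62, a 1.54-fold lower level, and those that were higher a median of 0.62. A 2-fold difference was reached by 8 lower and 2 higher members, beside 15.8% lower and 17.5% higher over all genes. In bulk RNA, fewer cells of a type and less RNA per cell cannot be told apart.

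The median of the measured members was 9.31, 9.45 and 9.41 in the 3 ESC samples against 9.13, 8.91 and 9.08 in SSC. The 3 SSC arrays thus all lay below the 3 ESC arrays. For single genes, the values of the groups did not overlap in 50 of 72 members, 37 with SSC below and 13 with SSC above ESC, beside 76.9% of all genes without overlap and 37.8% with SSC below. Of the 23 members not called, 13 had a difference below 0 and 10 above, and none exceeded 0.36 in size. At the probe level, 59 of the 107 measured probes were lower, 15 higher and 33 not called, and no share over all probes was computed. Among the 67 members detected on all 6 arrays, 36 were lower and 11 higher when the whole table was restricted in the same way. These are 53.7% and 16.4%, beside 38.7% lower and 33.9% higher over all genes so restricted.

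**Figure D1:**
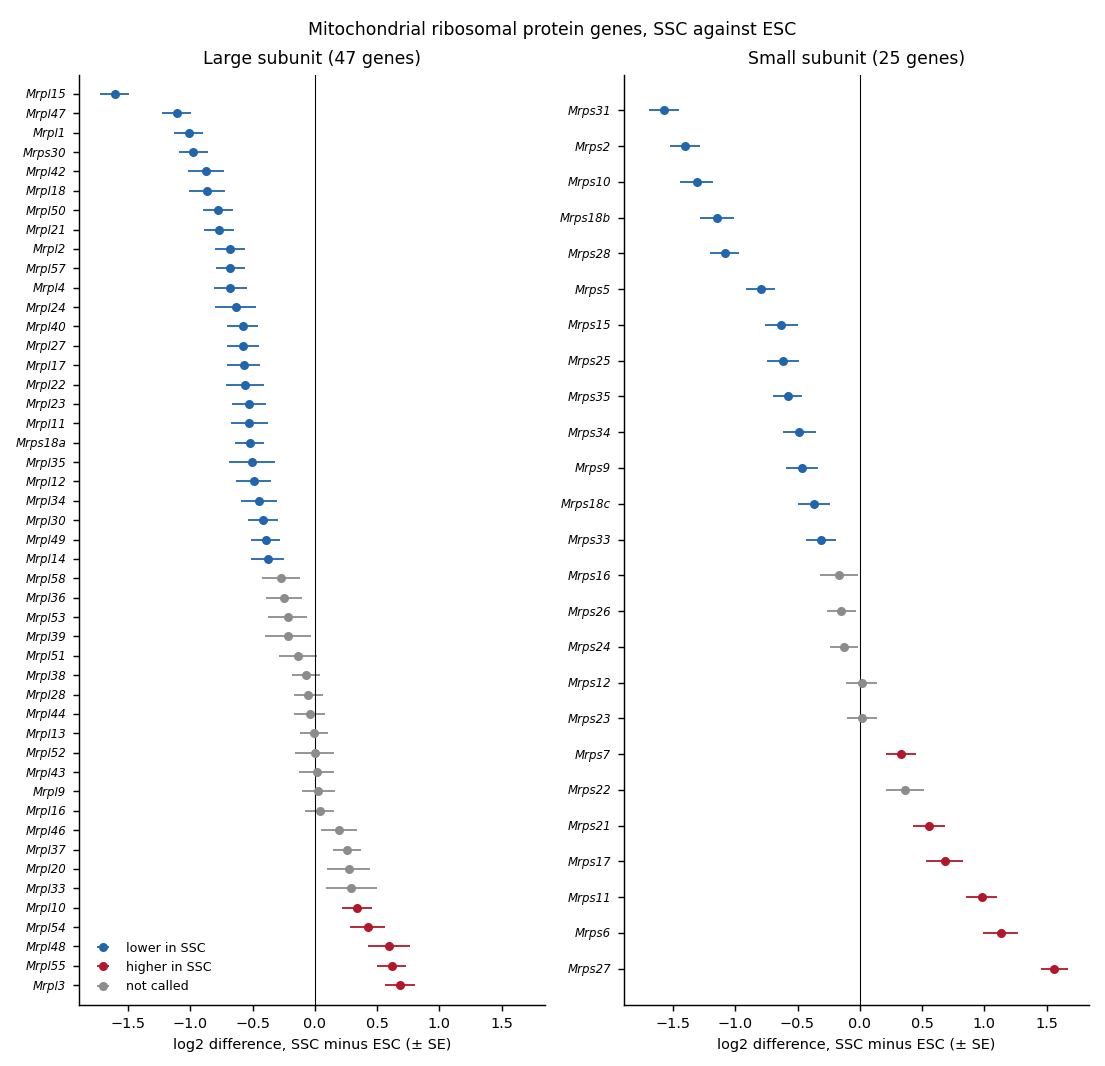
Log2 difference, SSC minus ESC, of each measured mitochondrial ribosomal protein gene, ordered by size, with bars for the standard error of the limma fit and colours for the call. Of the 72 genes, 38 lie on the lower side and 11 on the higher side with a call, and 10 pass a 2-fold difference.

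The large subunit, which joins amino acids into the protein chain, had 47 measured members. Of these 25 (53.2%) were lower, 5 (10.6%) higher and 17 not called, beside 36.5% lower and 37.9% higher over all genes. The subunit's median difference was -0.40. Its largest decrease was that of Mrpl15, a homologue of a bacterial core protein of the large subunit. Mrpl15 read 10.80, 10.91 and 10.95 in ESC and 9.22, 9.25 and 9.38 in SSC. The groups were far apart and each was tight. The difference was -1.61 ± 0.12 (SE, n = 3 per group, adjusted p = 4.33e-08 by limma), a 3.05-fold lower level, and all 6 measured probes of the gene were lower, by between -2.12 and -0.58.

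Proteins of the ring around the exit of the peptide tunnel, where the growing chain leaves the ribosome, fell together. All 5 measured members of the ring were lower in SSC, beside 36.5% of all genes, and the remaining one, Mrpl32, was not measured. Mrpl47, the ring's largest decrease, read 9.92, 9.90 and 9.86 in ESC and 8.80, 8.66 and 8.89 in SSC. Its difference was -1.11 ± 0.12 (SE, n = 3 per group, limma adjusted p = 1.72e-06). The other ring proteins had smaller and closely similar differences, -0.64 for Mrpl24, -0.57 for Mrpl17, -0.56 for Mrpl22 and -0.53 for Mrpl23, each without overlap between the groups. The grouping into structural sites was made after these values were seen, and it is a description.

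Around the peptidyl transferase centre, where the peptide bond is made, members went different ways. Mrpl2 and Mrpl4 were lower by nearly the same amount (-0.68 each), and Mrpl27 was lower as well (-0.58). Mrpl16 differed by 0.04 and was not called (adjusted p = 0.788). Mrpl3, whose protein also reaches into the centre, was higher: it read 9.32, 9.32 and 9.42 in ESC and 9.94, 9.95 and 10.21 in SSC. All SSC values lay above all ESC values, and the difference was 0.68 ± 0.12 (SE, n = 3 per group, limma adjusted p = 0.00021). The gene's other measured probe gave 0.67.

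The stalks at the sides of the large subunit gave 3 decreases. Mrpl1, the protein of the stalk on the side where spent transfer RNA leaves, read 9.56, 9.62 and 9.41 in ESC and 8.60, 8.51 and 8.44 in SSC, a difference of -1.01 ± 0.12 (SE, n = 3 per group, limma adjusted p = 4.42e-06). The stalk that recruits translation factors is built on Mrpl10, Mrpl11 and Mrpl12, and Mrpl12 is also known to bind the mitochondrial RNA polymerase. Mrpl11 (-0.53) and Mrpl12 (-0.49) were lower, each with SSC values below all ESC values. Mrpl10 could not be given a direction, because its probes moved in opposite ways. The probe that stands for the gene read 9.90, 9.88 and 9.84 in ESC and 10.06, 10.22 and 10.35 in SSC, a difference of 0.34 with an adjusted p of 0.0209 by limma. Its other probe read 10.23, 10.24 and 10.22 in ESC and 9.74, 9.78 and 9.70 in SSC, a difference of -0.49 with an adjusted p over probes of 0.0014. Neither probe overlapped between groups. Mrpl10 was the only member with measured probes called in both directions among 24 with more than 1 measured probe, of which 11 had every probe called the same way. It is counted among the 11 higher members through its brighter probe, and it was lower (-0.51 and -0.47) without SSC replicate 2 or without SSC replicate 3, where the other probe became the brighter. Without ESC replicate 2 or without ESC replicate 3 the higher call was lost (adjusted p = 0.0587 in both).

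Other large subunit members that fell were Mrps30 and Mrps18a, which carry small subunit names but sit in the large subunit. Mrps30 read 11.05, 10.95 and 10.86 in ESC and 9.99, 9.95 and 9.99 in SSC, a difference of -0.98 ± 0.11 (SE, n = 3 per group, limma adjusted p = 4.92e-06). Mrps18a was lower by -0.52. Further decreases were those of Mrpl18 (-0.87), Mrpl42 (-0.87), Mrpl50 (-0.78) and Mrpl21 (-0.77), and those of Mrpl40, Mrpl35, Mrpl34, Mrpl30, Mrpl49 and Mrpl14 lay between -0.58 and -0.38. Mrpl35 kept no call without background correction (-0.15, adjusted p = 0.0889), under scaling on array medians, without a detection filter, or without ESC replicate 3, SSC replicate 1 or SSC replicate 2. Without ESC replicate 3 or without SSC replicate 2, Mrpl34 (adjusted p = 0.0586 and 0.0689) and Mrpl14 (0.0566 and 0.0916) also lost their calls, and Mrpl14 did so under scaling on array medians (0.0551).

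Besides Mrpl3 and Mrpl10, the large subunit members that rose were Mrpl55, which has a bacterial homologue, and Mrpl48 and Mrpl54, which are particular to mitochondria. Mrpl55 read 7.15, 7.29 and 7.26 in ESC and 7.96, 7.75 and 7.85 in SSC, a difference of 0.62 ± 0.12 (SE, n = 3 per group, limma adjusted p = 0.000354). Mrpl48 read 7.75, 8.19 and 8.33 in ESC and 8.87, 8.40 and 8.78 in SSC, a difference of 0.59 ± 0.17 (limma adjusted p = 0.00639). At these probes the SSC values of both genes lay above the ESC values, though for Mrpl48 the nearest values of the groups almost met. Mrpl48's other measured probes gave 0.51, called higher, and 0.18, not called (adjusted p over probes of 0.226 by limma). Mrpl54 was higher by 0.42, a call lost without ESC replicate 1 (adjusted p = 0.0705) or SSC replicate 1 (0.0726). Mrpl57, particular to mitochondria, was dim. It was detected on all ESC arrays at 5.21, 5.19 and 5.21 and on no SSC array, where it read 4.39, 4.57 and 4.61. Since its SSC level is below detection, the gene was at least 1.32-fold lower in SSC (limma adjusted p = 0.000144 from the fitted values).

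The small subunit, which binds the messenger RNA and decodes it, had 25 measured members. Of them 13 (52%) were lower, 6 (24%) higher and 6 not called, beside 36.5% lower and 37.9% higher over all genes. The subunit's median difference was -0.31, and both of the members with a 2-fold increase belonged to it. Mrps31, a protein particular to mitochondria, read 11.04, 10.90 and 10.93 in ESC and 9.39, 9.26 and 9.52 in SSC. That difference was -1.57 ± 0.12 (SE, n = 3 per group, limma adjusted p = 8.02e-08), a 2.97-fold lower level, and its 3 measured probes ranged from -1.77 to -1.57. Mrps2, a homologue of a bacterial protein at the junction of head and body, read 7.81, 7.78 and 7.96 in ESC and 6.34, 6.57 and 6.44 in SSC, a difference of -1.40 ± 0.12 (limma adjusted p = 2.51e-07). In both genes every SSC value was more than 1 log2 unit below every ESC value. Without background correction the difference of Mrps2 was -0.87.

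The head of the small subunit, which swivels as the ribosome moves along the messenger RNA, held a large decrease and a small increase. Mrps10 read 10.45, 10.32 and 10.48 in ESC and 9.13, 8.89 and 9.30 in SSC, a difference of -1.31 ± 0.13 (SE, n = 3 per group, limma adjusted p = 1.18e-06). All 3 of its measured probes were lower, the smallest by -0.34. Mrps9 was lower by -0.47, and Mrps24 differed by -0.13 without a call. Mrps7 was higher by 0.33 (limma adjusted p = 0.023), while its other measured probe gave -0.20 and was not called. That call was lost without ESC replicate 3 (adjusted p = 0.102), SSC replicate 1 (0.0614) or SSC replicate 3 (0.0523), and over the mean of both probes (0.07).

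The platform, where the messenger RNA leaves the decoding site, held 3 of the 6 higher members of the small subunit. Mrps6 read 8.10, 8.40 and 8.33 in ESC and 9.37, 9.20 and 9.66 in SSC, a difference of 1.13 ± 0.14 (SE, n = 3 per group, limma adjusted p = 9.98e-06). Mrps11 read 7.92, 8.13 and 8.18 in ESC and 9.13, 8.93 and 9.11 in SSC, a difference of 0.98 ± 0.12 (limma adjusted p = 1e-05), with 0.93 from its other probe. The SSC values of both genes were clear of the ESC values. Mrps21 was also higher (0.56). Their platform neighbours Mrps15 (-0.63) and Mrps18c (-0.37) were lower, so the 5 platform proteins had a median difference of 0.56 with members on either side. Both of those decreases lost their calls under scaling on array medians, and that of Mrps18c also without ESC replicate 2 (adjusted p = 0.0796) or SSC replicate 2 (0.0867).

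In the body of the small subunit, Mrps5 was lower (-0.80) and Mrps17 higher. Mrps17 read 10.25, 9.95 and 9.91 in ESC and 10.77, 10.93 and 10.46 in SSC, a difference of 0.68 ± 0.15 (SE, n = 3 per group, limma adjusted p = 0.000966). Mrps16 was not called (-0.16). Mrps12, the homologue of the bacterial protein that governs decoding accuracy, depended on the probe. Its brighter probe gave 0.02 without a call, and its other probe 0.77, with ESC values of 9.25, 9.55 and 9.61 and SSC values of 10.16, 10.17 and 10.38. Averaged over both probes the gene was higher by 0.39 (adjusted p = 0.00505).

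Members related to a single bacterial protein went together in the Mrps18 family. Mrps18b read 10.01, 10.10 and 10.46 in ESC and 9.10, 8.95 and 9.07 in SSC, a difference of -1.15 ± 0.14 (SE, n = 3 per group, limma adjusted p = 5.54e-06). With Mrps18a and Mrps18c, described above, all 3 family members were called lower, beside 36.5% of all genes. Among the other small subunit members, Mrps28 was lower by -1.09, and Mrps25, Mrps35, Mrps34 and Mrps33 were lower by between -0.62 and -0.31, of which Mrps25 lost its call under scaling on array medians (adjusted p = 0.0672). Mrps33 kept its call in 1 of the 6 fits that each leave out a sample, and its adjusted p was 0.0567 to 0.0903 in the other 5. Mrps22 had a difference of 0.36 with an adjusted p of 0.0504, just outside the threshold, although its SSC values (9.41, 9.03 and 9.09) were above its ESC values (8.49, 8.97 and 8.98). It was called higher in 8 alternative fits: under scaling on array medians, from the authors' processed table, without background correction, with detection on all 6 arrays, over the mean of kept probes, and without ESC replicate 2, ESC replicate 3 or SSC replicate 2 (adjusted p 0.0101 to 0.046).

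The largest fitted increase was that of Mrps27, an RNA-binding protein of the pentatricopeptide repeat family that is particular to mitochondrial ribosomes. Its single measured probe was not detected on any ESC array, where it read 4.72, 4.79 and 4.74, and read 6.26, 6.32 and 6.36 on the SSC arrays. The gene was therefore at least 2.48-fold higher in SSC (limma adjusted p = 3.96e-08 from the fitted values). Without background correction the fitted difference was 0.55.

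**Figure D2:**
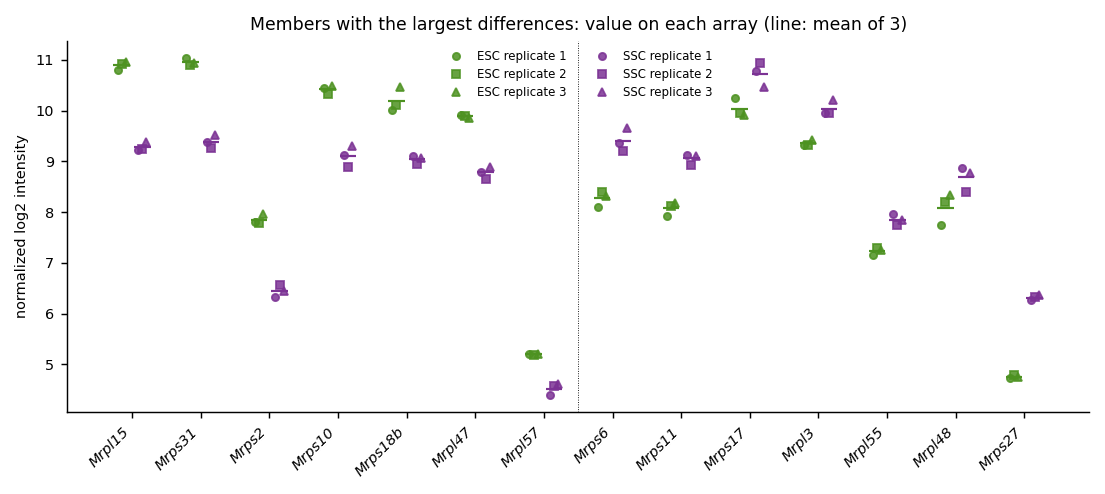
Normalised log2 intensity on each of the 6 arrays for named members, with 1 point per array. Colour gives the group, green for ESC and purple for SSC. Marker shape gives the replicate number, and a line the group mean. Mrpl57 and Mrps27, each undetected in 1 group, are shown too. The 6 largest decreases and the 6 largest increases among members detected on all arrays show no overlap between the groups. They were chosen for their size, which favours this, and 76.9% of all genes had no overlap either.

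Mrps24, Mrpl28, Mrpl38, Mrpl17, Mrpl13, Mrps30, Mrpl21 and Mrps33, whose probes gave the strongest signal among members, were either called lower or not called. Mrps17, the next in signal, was called higher (0.68). In the brightest of 4 equal groups of genes, 26 of 49 members were lower and 6 higher. Over all genes of that group 35.2% were lower and 34.4% higher. Signal depends on the probe as well as on the RNA, so it does not rank the genes. Mrps24 read 11.93, 11.95 and 11.82 in ESC and 11.80, 11.68 and 11.83 in SSC, and its groups overlapped (adjusted p = 0.327). Mrpl28 (-0.05), Mrpl38 (-0.07) and Mrpl13 (-0.01) were not called, with adjusted p of 0.698, 0.585 and 0.936 by limma. Under scaling on array medians Mrps24 (-0.53), Mrpl28 (-0.30) and Mrpl38 (-0.30) were called lower. Mrpl17, Mrps30, Mrpl21 and Mrps33, the others with the strongest signal, were called lower as given above, by between -0.98 (Mrps30) and -0.31 (Mrps33).

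The members also fall into proteins with a bacterial homologue and additions particular to mitochondria. Over all genes, 36.5% were lower and 37.9% higher. Of 45 measured members with a bacterial homologue, 27 (60%) were lower, 8 (17.8%) higher and 10 not called, with a median of -0.47. Of 27 measured members particular to mitochondria, 11 (40.7%) were lower, near the share over all genes, 3 (11.1%) higher and 13 not called. Their median was -0.22. The contrast was larger in the large subunit, where the medians were -0.51 over 29 homologues and -0.18 over 18 additions, than in the small subunit, where they were -0.27 over 16 and -0.31 over 9. Whether the classes differ was not tested.

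Most members gave bright probes, so they were also set beside genes of like signal. Of the 72 measured, 65 lay above the median signal of all genes, and 49 were in the brightest of 4 equal groups of genes. In that group 26 members (53.1%) were lower, 6 were higher and 17 were not called, with a median of -0.38. Over all 2506 genes of that group, 35.2% were lower and 34.4% higher, with a median of -0.0065. The spread within groups was alike, with a median SD of 0.132 for members and 0.136 for all genes.

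**Figure D3:**
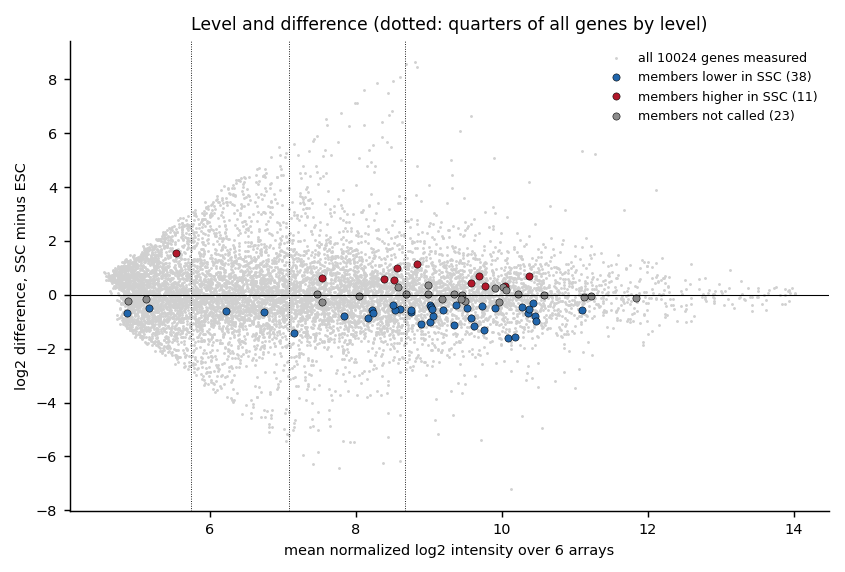
Mean log2 intensity over the 6 arrays against the log2 difference, SSC minus ESC, for all 10024 genes (grey) and the 72 measured mitochondrial ribosomal protein genes (coloured by call). The members crowd at the bright end, 65 of them above the median signal, and more of them lie below 0 than above.

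Ribosomal proteins without an Mrpl or Mrps symbol and the factors that build and serve the ribosome were also read. Chchd1, a small subunit protein, read 11.64, 11.62 and 11.57 in ESC and 10.85, 10.60 and 10.60 in SSC, a difference of -0.93. Ptcd3, a pentatricopeptide repeat protein of the small subunit, was lower by -0.84. Dap3, the GTP-binding protein of the small subunit, differed by 0.23 at its brightest probe and was not called. Its 4 measured probes ranged from -0.37 to 0.23. Gadd45gip1 was not measured.

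Assembly factors and enzymes that modify the ribosomal RNA had 19 measured genes. Of these 11 (57.9%) were lower, 4 (21.1%) were higher and 4 were not called, with a median of -0.44. Over all genes 36.5% were lower, 37.9% higher and 74.5% called in either direction, beside 78.9% of this list called. Tfb1m, which methylates the RNA of the small subunit, read 8.17, 8.02 and 7.92 in ESC and 5.66, 5.49 and 6.49 in SSC, a difference of -2.16 ± 0.21 (SE, n = 3 per group, limma adjusted p = 8.3e-07). Rcc1l, an assembly factor of the large subunit, was lower by -1.41, and the GTPase Mtg1 by -1.04. Rbfa, a maturation factor of the small subunit, had a fitted difference of 3.89 at its brighter probe, yet its other measured probe gave -0.09, so its direction depends on the probe, and it is 1 of the 4 counted as higher through the brighter probe. Under scaling on array medians, 7 of these genes were lower and 6 higher, with a median of -0.18, and without background correction the median was -0.22.

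Translation factors were more mixed. Of 17 measured, 5 (29.4%) were lower, 3 (17.6%) were higher and 9 were not called, beside 36.5% lower and 37.9% higher over all genes. Their median was -0.20, and it became 0.06 under scaling on array medians. Tsfm, the exchange factor of the elongation factor Tufm, was lower (8.25, 8.26 and 8.24 in ESC; 6.97, 6.89 and 7.02 in SSC; -1.29), as were Mtrf1, of the release factor family (-1.14), and the translocase Gfm1 (-1.07). Tufm itself was not called (0.08). Mtrf1l, a release factor, was higher (1.03). Gfm2, which recycles ribosomes, gave 2.11 at its brighter probe and -1.29 at its other probe, so no direction is given for it, although it is 1 of the 3 counted as higher through its brighter probe. Without background correction the list's median was -0.13.

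Mitochondrial aminoacyl-tRNA synthetases, which charge the transfer RNAs, had 13 measured genes, 8 (61.5%) lower, 2 (15.4%) higher and 3 not called, with a median of -0.56. The 76.9% called stand beside 74.5% of all genes, with 36.5% of all genes lower and 37.9% higher. Aars2, for alanine, was at least 2.03-fold lower, being undetected on all SSC arrays, and Mars2, for methionine, was lower by -0.77. Lars2, for leucine, went the other way: it read 5.52, 5.20 and 5.25 in ESC and 6.90, 6.86 and 6.79 in SSC, a difference of 1.53. Without background correction 8 of these genes were lower and 4 higher, with a median of -0.31, and under scaling on array medians 6 and 3, with a median of -0.25.

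Genes that copy and transcribe mitochondrial DNA, the source of the ribosomal RNAs, had 11 measured members. Of these 7 (63.6%) were lower, 4 were not called and none was higher, beside 36.5% lower and 37.9% higher over all genes. The list's median was -0.49. Under scaling on array medians 5 were lower, none was higher, and the median was -0.31. Tfam, which packages the DNA and starts transcription, was lower by -1.06 and the elongation factor Tefm by -1.13. Mterf1a and Mterf1b, termination factors, were lower by -1.67 and -1.73, but they are near-identical copies whose probes may read each other. Polrmt, the RNA polymerase itself, was not called (0.16).

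Cytosolic ribosomal proteins and the nuclear subunits of the respiratory chain and ATP synthase, where the products of the mitochondrial ribosome are used, had smaller median differences than the mitochondrial ribosomal proteins. Of 52 measured cytosolic ribosomal proteins, 24 (46.2%) were lower, none higher and 28 not called, with a median of -0.20. Of 73 measured respiratory chain and ATP synthase genes, 25 (34.2%) were lower, 9 (12.3%) higher and 39 not called, with a median of -0.19. Over all genes 36.5% were lower and 37.9% higher. Under scaling on array medians 39 respiratory chain and ATP synthase genes were lower and 9 higher, and 45 cytosolic ribosomal proteins were lower. The order of the medians depends on the scaling. With arrays scaled on their medians, the median of all genes moved to 0.19, and relative to it the mitochondrial ribosomal proteins stood at -0.48, the respiratory chain genes at -0.51 and the cytosolic ribosomal proteins at -0.93. Without background correction, 28 cytosolic ribosomal proteins were lower and 4 higher. No test of a difference between these families was made.

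**Figure D4:**
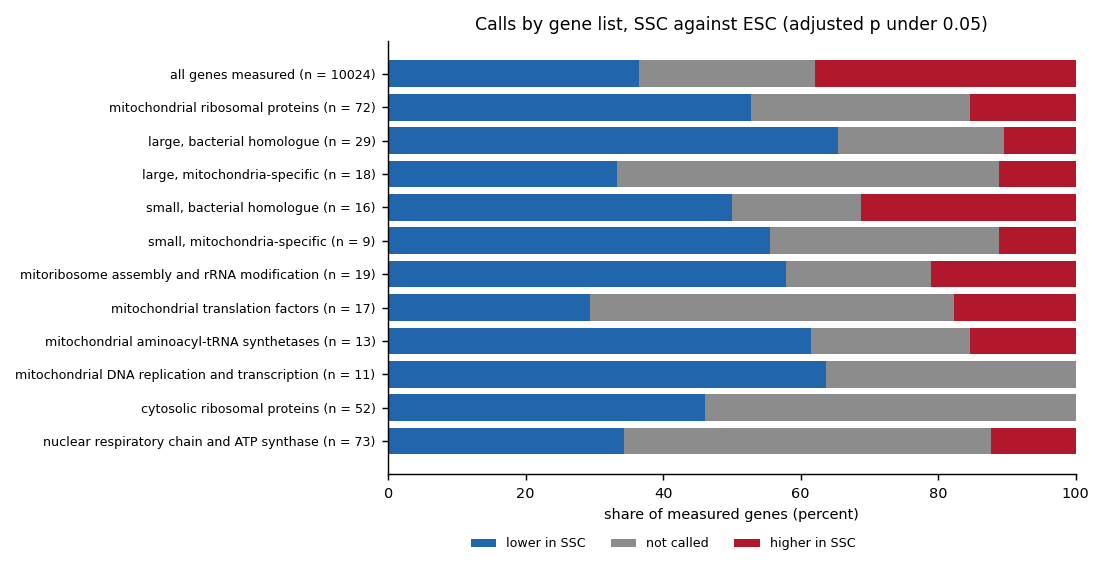
Share of measured genes called lower (left), not called and called higher (right) in SSC for the mitochondrial ribosomal proteins, their subunits, related gene lists and all genes measured. The mitochondrial ribosomal proteins have 52.8% lower and 15.3% higher, beside 36.5% and 37.9% of all genes.

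The promoters of the members were examined for letters that the naming rule did not use. RefSeq windows of GRCm38.p6, from 250 bases before to 50 bases after the start site, existed for 67 of the 76 genes. Nuclear respiratory factor NRF1, ETS family factors such as GABP, and YY1 are known regulators of nuclear genes for mitochondrial proteins. Each window was searched on both strands for GCGCA and GCGC with any 1 base between them (NRF1), for CCGGAAG (ETS) and for AAGATGGCG (YY1). No member window had matches of different motifs that shared bases. The NRF1 letters were in 13 member windows (19.4%), beside 4.78% of all 27025 windows and 10.8% of the 8143 windows of measured genes. The ETS letters were in 25 (37.3%), beside 9.12% and 18.4%, and the YY1 letters in 8 (11.9%), beside 1.49% and 3.34%. At least 1 of the 3 motifs was in 40 member windows (59.7%), beside 14.0% and 29.1%. A match describes the letters of the window and does not show that a factor binds there.

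Motifs occurred in members of every call. At least 1 motif was found in 17 of 33 windows of members lower in SSC (51.5%), in 4 of 10 of those higher (40.0%) and in 17 of 21 of those not called (81.0%). Examples are shown for members higher and lower in SSC, with and without a match, 5′ to 3′ on the strand of the gene, with motif letters in capitals. Mrps11, higher in SSC (chr7:78782881-78783180, plus strand), has a YY1 match, and Mrps27, also higher (chr13:99344536-99344835, plus strand), has an ETS and a YY1 match. Mrpl14, lower (chr17:45686099-45686398, plus strand), has an NRF1 match. Mrps31, the small subunit's largest decrease (chr8:22411090-22411389, plus strand), has none of these letters.
Mrps11: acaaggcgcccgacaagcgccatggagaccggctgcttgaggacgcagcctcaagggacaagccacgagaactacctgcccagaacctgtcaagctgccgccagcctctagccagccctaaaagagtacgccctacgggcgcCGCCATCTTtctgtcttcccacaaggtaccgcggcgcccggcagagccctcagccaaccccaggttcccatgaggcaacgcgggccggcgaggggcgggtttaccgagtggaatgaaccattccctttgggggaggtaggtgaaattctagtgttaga
Mrps27: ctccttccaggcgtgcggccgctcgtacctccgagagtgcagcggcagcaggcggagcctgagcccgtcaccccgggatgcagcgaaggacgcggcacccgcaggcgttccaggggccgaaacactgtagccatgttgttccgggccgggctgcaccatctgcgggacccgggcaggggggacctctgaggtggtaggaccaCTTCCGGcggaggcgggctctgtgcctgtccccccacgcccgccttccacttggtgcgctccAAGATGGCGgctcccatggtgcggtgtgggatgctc
Mrpl14: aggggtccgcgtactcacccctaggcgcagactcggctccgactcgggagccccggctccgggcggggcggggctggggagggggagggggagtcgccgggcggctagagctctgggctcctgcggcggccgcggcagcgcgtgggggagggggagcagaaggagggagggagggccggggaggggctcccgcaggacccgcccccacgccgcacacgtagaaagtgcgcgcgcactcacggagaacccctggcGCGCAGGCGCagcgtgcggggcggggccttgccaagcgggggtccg
Mrps31: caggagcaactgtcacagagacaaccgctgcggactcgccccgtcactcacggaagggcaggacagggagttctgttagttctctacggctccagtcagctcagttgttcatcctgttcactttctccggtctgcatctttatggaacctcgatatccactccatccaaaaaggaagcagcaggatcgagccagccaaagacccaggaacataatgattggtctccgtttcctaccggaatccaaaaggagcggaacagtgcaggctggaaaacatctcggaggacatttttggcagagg

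Members often shared their start region with a gene on the opposite strand. Start sites lying within 500 bases of each other and pointing apart were found for 22 of the 67 members (32.8%), beside 9.33% of all windows and 15.3% of those of measured genes. Mrps11 and Mrpl46 are such a pair by themselves, with start sites 42 bases apart. Of them Mrps11 was higher (0.98), while Mrpl46 read 10.05, 9.96 and 9.89 in ESC and 10.33, 9.83 and 10.33 in SSC, overlapped between groups and was not called (0.19, adjusted p = 0.247). Without SSC replicate 2 Mrpl46 was called higher, like Mrps11 (0.37, adjusted p = 0.0252).

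In 14 pairs both genes were measured, and in 10 of these both were called. Both genes were lower in 7 of the 10, and they went opposite ways in 3, so 70.0% of the pairs with 2 calls shared a direction, beside 64.1% of 142 such pairs over all genes. Pairs that were lower together included Mrpl47 with Ndufb5, a complex I subunit (-0.73), Mrpl18 with the chaperonin subunit Tcp1 (-0.38), and Mrpl57 with the kinetochore gene Ska3 (-1.39). Mrpl30 with Mitd1 (-1.53), Mrpl14 with the membrane protein gene Tmem63b (-1.69), Mrps5 with Zfp661 (-0.99) and Mrps18c with the helicase gene Helq (-0.86) completed them.

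The widest divergence was at Mrps27, whose start lies 108 bases from that of Ptcd2, a gene for a pentatricopeptide repeat protein of mitochondria. Ptcd2 read 7.39, 7.61 and 7.82 in ESC and 6.02, 5.83 and 5.85 in SSC, a difference of -1.71 ± 0.13 (SE, n = 3 per group, limma adjusted p = 1.08e-07), while Mrps27 was higher. No SSC value of Ptcd2 reached its ESC values. The other opposite pairs were Mrps7 (0.33) with Gga3, an adaptor of Golgi transport (-1.07), and Mrpl2 (-0.68) with the kinesin light chain gene Klc4 (0.81). In the remaining pairs at least 1 gene was not called, as for Mrps12 and Sars2, the mitochondrial synthetase for serine (-0.20), neither of which was.

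**Figure D5:**
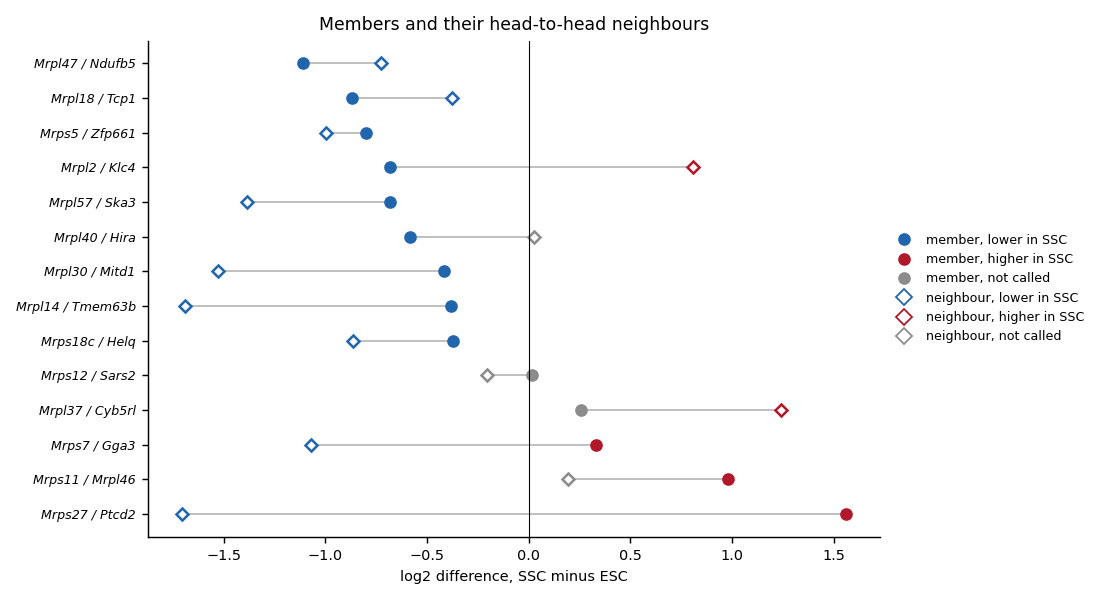
Log2 difference, SSC minus ESC, of each measured member (filled circle) and of its measured neighbour that starts on the opposite strand within 500 bases (open diamond), coloured by call. Of the 14 pairs, 7 have both genes called lower and 3 have genes called in opposite directions, the widest being Mrps27 and Ptcd2.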

How the data were processed

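Expression was measured in 3 ESC and 3 SSC samples. The deposited intensity values are mean probe brightness per array with the background in them and no normalization between arrays, per the file headers and values. Per the file headers, each intensity comes with a detection p-value. GenomeStudio, without a version, is named per the submitters' processing notes. The authors' processed table holds linear intensity values with the same quantiles on every array, and its making is not described in the sources used here. It served as an alternative.

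Background was corrected by normexp with detection p-values and an offset of 16, followed by quantile normalization and log2 (limma 3.58.1, R 4.3.3). Probes detected at p under 0.01 on at least 3 of 6 arrays, 17435 in all, were fitted with lmFit and eBayes without covariates. Benjamini-Hochberg adjustment ran over 10024 genes, each taken at its brightest probe. The number of arrays limits the precision. The fit was tested on simulated data in which 200 of 10024 genes were changed. It recovered 17% of changes of 0.5 log2 and 84% of changes of 1 log2, and called 4 unchanged genes. Far fewer genes were changed there than were called in the real data, so these rates need not carry over. Where a probe was undetected on every array of a group, "at least N-fold" sets the other group's mean against a floor, namely the lowest detected value on each array, or the probe's own where that is higher, averaged over arrays. Symbols come from the platform annotation, in which 34885 probes have 1 symbol, 18 several and 10378 none here. All 76 member symbols equal those of RefSeq (GRCm38.p6) by gene identifier. Marker sums add the linear intensities of the genes' probes after background correction and quantile normalization. Each gene carries the offset of 16, so low sums are partly offset and do not give ratios of signal.

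Members and gene lists were chosen with earlier results of these data known. Named members are the 6 largest called differences per direction among those detected on all arrays, the largest bounds, members with probes called in opposite directions, the 8 highest signals, members not measured, 11 with structural interest, and up to 3 genes per related list. Members named at structural sites, beside neighbours, in the remaining counts and for calls that changed were chosen after their values were seen. Alternatives were background correction, scaling, the starting table, the detection filter, the mean of a gene's probes, a stricter threshold of 0.01, replicate number as a block, and leaving out each sample. A block for the slide was not run, since no slide was found in the headers used here.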

Additional observations from a re-analysis of the deposited data

How the results depend on the processing

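The counts of called members kept their direction in every setting tried. Between 44 and 47 members were called when each sample was left out, 34 to 39 of them lower and 8 to 12 higher, and the members' median then lay between -0.45 and -0.34. The median of all genes moved as well in these fits, between -0.11 and 0.07. Relative to it the members stood between -0.44, without ESC replicate 1, and -0.24, without SSC replicate 2. In the latter fit 47.9% of members were lower and 16.9% higher, beside 38.0% and 30.5% of all genes. The median was -0.26 without background correction and -0.26 in the processed table of the authors, with 37 lower and 13 higher. Scaling on array medians gave 36 lower and 14 higher, and an adjusted p under 0.01 left 33 lower and 8 higher. The same scaling called 45 cytosolic ribosomal proteins in place of 24. For the related lists, leaving out a sample gave 14 to 15 called assembly genes, 8 to 11 translation factors, 8 to 10 synthetases, 6 to 7 genes of mitochondrial DNA and 20 to 26 cytosolic ribosomal proteins. For the 3 ribosomal proteins without an Mrpl or Mrps symbol, 2 were lower throughout, and Dap3 made 1 higher without background correction. Of the 72 measured members, 50 had the same call in every setting in which they had a value. With detection on all 6 arrays 67 members were measured, and 71 when a sample was left out. Mrps27 and Mrpl57, each undetected in 1 group, count among the 50 although they had no value with detection on all 6 arrays. Mrpl10 alone turned its sign with a call. It was -0.075 (adjusted p = 0.499) over the mean of its probes. When each sample was left out it ranged from -0.51 to 0.41, with -0.51 without SSC replicate 2 and -0.47 without SSC replicate 3. Among 49 called members, 6 had a difference more than 1.5 times smaller without background correction (Mrps2, Mrps27, Mrpl57, Mrpl35, Mrps15 and Mrps25) and the cause was not tested. Samples with the same number did not deviate together (correlations of -0.14, -0.07 and 0.03), and 1 of the 6 samples correlated best with its own number. With the replicate block 49 members were called, 38 lower and 11 higher, and the block changed no call of a member. Members not called as reported but called in at least 1 alternative, beside Mrps22 and Mrpl46, were Mrpl16, Mrpl20, Mrpl37 and Mrps12 (higher) and Mrps24, Mrpl28, Mrpl38, Mrpl39, Mrpl53 and Mrpl58 (lower). Dim members such as Mrps27 and Mrpl57 are limited by signal over background.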

Other observations

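Members on chromosome 17 were lower in 7 of the 8 measured, with a median difference of -0.60, beside a median of -0.076 over 506 measured genes of that chromosome, 39.5% of which were lower. This chromosome was singled out after its values were seen among 17 with measured members, and it has no test. The 7 are Mrps10, Mrps18b, Mrps18a, Mrpl18, Mrpl2, Mrpl14 and Mrps34, described above.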
